A study of Danio rerio with 9 samples.

Results

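The splicing factor and hnRNP genes described here are the gene rows whose names begin with hnrnp, with srsf, sf3a, sf3b or prpf followed by a digit, or with snrp, and that hold at least 15 counts over all libraries. 71 of the 41977 gene rows of the tables met this rule, and the count minimum removed none of them. They comprise 21 hnRNP genes, 17 genes of serine- and arginine-rich (SR) proteins, 9 genes of the SF3A and SF3B subunits, 12 snrp genes and 12 PRPF genes. The rule uses names and a count minimum only.

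Splicing removes introns from pre-mRNA in the spliceosome, a machine built from small nuclear RNAs bound to Sm proteins and to proteins particular to each particle. The snrp genes encode Sm proteins and proteins of the U1 and U2 particles, the SF3A and SF3B complexes help the U2 particle hold the branch point, and the PRPF proteins, named after yeast pre-mRNA processing mutants, act largely in the U1 particle, in the joint particle of U4, U5 and U6, or as a splicing-linked kinase. SR proteins mostly promote the use of the exons they bind, whereas hnRNPs coat nascent transcripts and often act against exon inclusion, besides roles in RNA export, stability and translation.

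Poly(A) RNA was sequenced from whole wild type zebrafish embryos of the TE strain at shield stage, the onset of gastrulation. The 3 groups were bmp-overexpressing embryos, given 10 pg of mRNA for the ventralizing ligand Bmp2b at the one-cell stage, chd-overexpressing embryos, given 100 pg of mRNA for its extracellular inhibitor Chordin, and siblings left uninjected. All were frozen when the uninjected embryos reached about 6.75 h post-fertilization, with 3 libraries per group and 10 embryos pooled in each, and no group received a control mRNA. The comparisons ask which transcripts differ when BMP signaling is raised or inhibited.

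The libraries held 8861308 to 22372856 counts. Counts of each injected gene were higher in its own group than in uninjected libraries. *bmp2b* had 707 to 912 counts scaled to library size (CPM) in bmp-overexpressing and 98.9 to 117 CPM in uninjected libraries. *chd* had 1647 to 2260 CPM in chd-overexpressing and 193 to 217 CPM in uninjected libraries. The paper states that injected and endogenous transcripts of these genes could not be told apart. Of 11 germ layer and dorsal-ventral marker genes, 4 were higher and 4 lower in bmp-overexpressing than in uninjected embryos (limma, adjusted p under 0.05), and 2 higher and 5 lower in chd-overexpressing than in uninjected embryos. Maternal transcripts (6 genes) and p53-linked stress genes (4 genes) had no call in any comparison. Of 10 genes of later tissues, 1 stayed at or under 3 counts in every library, and the list summed to 21.7 to 40.5 CPM in bmp-overexpressing, 3.92 to 10.1 CPM in chd-overexpressing and 3.39 to 11.5 CPM in uninjected libraries, mostly from the neuronal gene *elavl3* (27.9 CPM with bmp, 5.88 CPM with chd and 5.94 CPM without injection on average). *elavl3* was called higher with bmp than without injection (log2 fold change 2.41 ± 0.37 SE, limma adjusted p = 2.48e-05). It was also called higher with bmp than with chd (2.64 ± 0.40 SE, limma adjusted p = 2.22e-05). In RNA from whole embryos, fewer cells of a type and less RNA per cell cannot be told apart, and the p-values measure the spread between these pooled samples.

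Transcripts of these genes were abundant in uninjected embryos. Per unit of transcript length, on the authors' FPKM scale with 1 pooled value per group, the median level of the members was 212 FPKM, against 1.25 FPKM over the 25113 genes with a count in uninjected embryos. 60 of the 71 members lay above the 90th percentile of FPKM over those genes and 22 above the 99th. The highest level was that of *hnrnpa0l* (4776 FPKM), an hnRNP A0-like gene, followed by *snrpb* (4379 FPKM), which encodes the Sm core protein B, and *hnrnpa0b* (2726 FPKM), one of a pair of hnRNP A0 copies. Next in order were *hnrnpa1b* (1519 FPKM), *srsf5a* (1421 FPKM) and *hnrnpabb* (1076 FPKM). Since each FPKM is a single pooled value, the spread between neighbours in this order is unknown.

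Lower levels were found in a few members of the same families. *prpf4ba* had 6.7 FPKM in uninjected embryos, still above the median of 1.25 FPKM over all genes with a count. Below that median were *srsf7b* with 0.52 FPKM, *hnrnpa3* with 0.3 FPKM and *hnrnph3* with 0.09 FPKM. The last 3 rest on few reads: *hnrnpa3* had 0 to 19 counts per library and did not pass the filter on low counts, so 70 of the 71 members were tested. *srsf7b* had 5 to 44 counts and *hnrnph3* 2 to 40 counts per library. The plot of FPKM in uninjected embryos shows hnRNP and SR genes along most of the range. Interleaved with them over parts of it were the snrp genes (4379 to 188 FPKM) and the SF3 genes (554 to 86.9 FPKM). No PRPF gene was among the 35 highest members, and *prpf39* was highest of its family (212 FPKM).

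**Figure D1:**
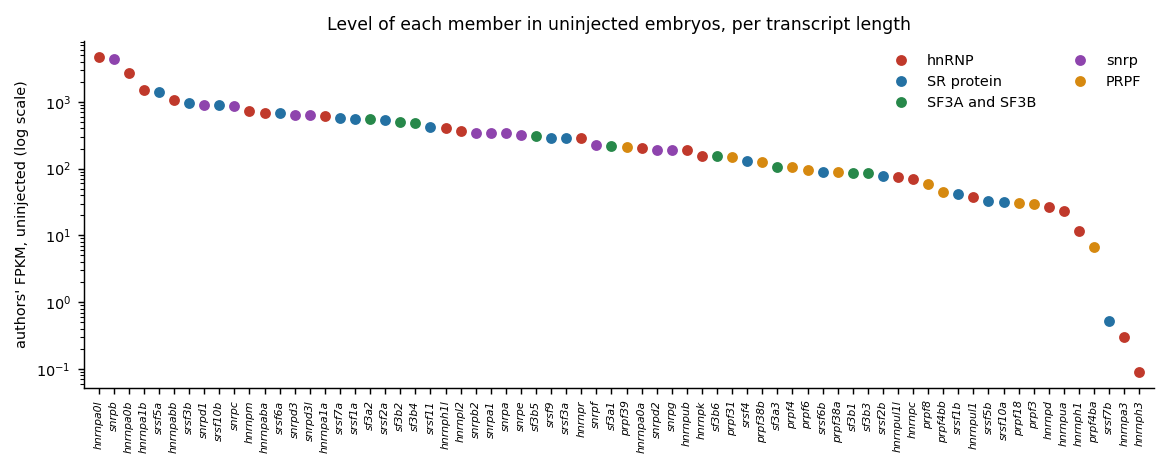
Authors' FPKM of the members in uninjected embryos (70 of 71 drawn) (vertical axis, log scale), 1 pooled value per gene, ordered from high to low and coloured by family. The values run between 4776 FPKM for *hnrnpa0l* and 0.09 FPKM for *hnrnph3*. The snrp and SF3 genes are interleaved with hnRNP and SR genes over parts of that range.

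The sum over all members was 40596, 40875 and 40084 CPM in the 3 bmp-overexpressing libraries, 44192, 45803 and 46414 CPM in the chd-overexpressing libraries and 42611, 45611 and 44780 CPM in the uninjected libraries. Each bmp-overexpressing library lay below each library of the other groups, whereas chd-overexpressing and uninjected libraries overlapped. As a share of all counts, without the TMM factors, the members took 4.03% on average with bmp, 4.49% with chd and 4.52% without injection. The order of the last 2 is the reverse of that of the TMM-scaled means, 45470 CPM with chd and 44334 CPM without injection. The sum is concentrated in a few genes, since 2 members held 25.4% of it and 10 members 57.5%, averaged over the uninjected libraries.

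Most of the difference in this sum lay in hnRNP genes, which also held most of the sum itself (24537 of 44334 CPM on average in uninjected embryos). hnRNP genes summed to 21897 ± 148 CPM in bmp-overexpressing, 25728 ± 596 CPM in chd-overexpressing and 24537 ± 1200 CPM in uninjected embryos (SD, n = 3 each). The difference between bmp-overexpressing and uninjected embryos was -2640 CPM (-10.8%), of which the neighbouring genes *hnrnpa0b* and *hnrnpa0l*, singled out after their values were seen, made up 78.1%. These 2 genes held 11243 of the 24537 CPM of hnRNP genes in uninjected embryos on average. Without them, the other 19 hnRNP genes summed to 12716 ± 52.7 CPM with bmp, 13743 ± 229 CPM with chd and 13295 ± 438 CPM without injection. That is a difference of -4.36% between bmp-overexpressing and uninjected embryos, smaller in size than in each other family (-5.02% to -7.68%).

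SR protein genes summed to 9115 ± 143 CPM with bmp, 9857 ± 113 CPM with chd and 9597 ± 81 CPM without injection, with no overlap between any 2 groups. On plain library totals, without the TMM factors, the order of the last 2 turned, with 9721 CPM in chd-overexpressing and 9782 CPM in uninjected embryos, and the median log2 fold change of all genes in this comparison was -0.048, against 0.002 with TMM. SF3A and SF3B genes, snrp genes and PRPF genes differed between bmp-overexpressing and uninjected embryos by -5.02%, -7.57% and -7.68% in their sums. The same sums differed between chd-overexpressing and uninjected embryos by -1.8%, -2.17% and -6.92%, and between bmp-overexpressing and chd-overexpressing embryos by -3.28%, -5.52% and -0.821%. With chd, plain library totals gave 3082, 4643 and 2032 CPM for these sums, against 3241, 4902 and 2256 CPM without injection. Of these families, SF3A and SF3B and snrp sums overlapped between bmp-overexpressing and uninjected libraries, and PRPF sums did not. The snrp sums weigh most on *snrpb*, which averaged 1673 ± 326 CPM with bmp, 1702 ± 212.5 CPM with chd and 1909 ± 143.5 CPM without injection. Against uninjected embryos, 9 of the 12 snrp genes had positive log2 fold changes with chd (median 0.017), although the sum was lower. With bmp 9 were negative and 3 positive. No test was made of sums over members.

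**Figure D2:**
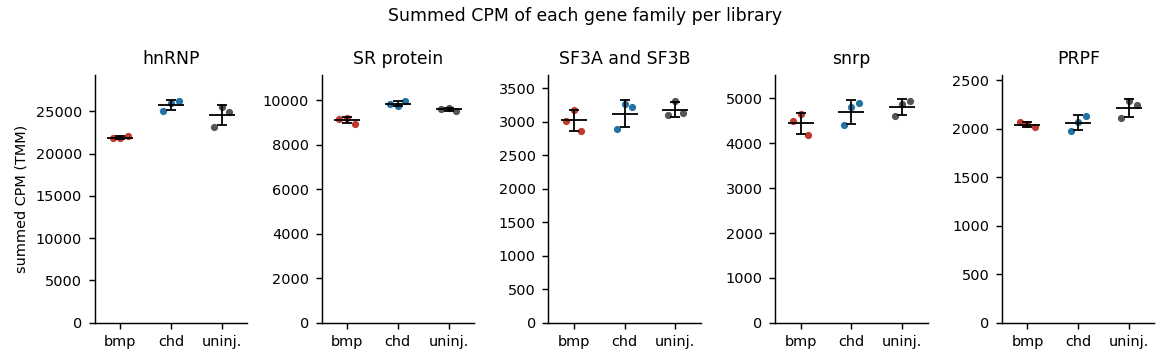
Summed CPM (TMM scaled, vertical axes starting at 0) of each family in the 9 libraries, with bmp-overexpressing (red) left, chd-overexpressing (blue) in the middle and uninjected (grey) right, points for libraries, bars for mean and SD. The hnRNP sums with bmp sit between 21791 and 22066 CPM, below all chd-overexpressing (25059 to 26201 CPM) and uninjected (23181 to 25472 CPM) libraries.

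In bmp-overexpressing against uninjected embryos, 4 of the 70 members tested were called lower and 0 higher (limma on voom-weighted counts, Benjamini-Hochberg adjusted p under 0.05 over all 16779 genes tested). Among all genes tested, 1.54% were called lower and 1.66% higher. The 4 genes were *hnrnpa0b*, *hnrnpa0l*, *srsf2a* and *prpf8*. At an unadjusted p under 0.05, 17 members were lower and 0 higher, against 6.54% and 6.35% of all genes tested, and limma-trend called 2 lower and 0 higher. Leaving out 1 library gave 2 to 9 members lower, with 9 without uninjected replicate 1 and 2 without bmp-overexpressing replicate 1 or 3.

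*hnrnpa0b* encodes an hnRNP A0 protein, known in mammals to bind AU-rich elements of mRNAs, and lies at chr14:38505365-38508064 of GRCz10. It had 3375, 3504 and 3394 CPM in bmp-overexpressing libraries, against 4250, 4790 and 4758 CPM in uninjected libraries. The groups did not overlap, and the transcript fell by 26.0% (log2 fold change -0.43 ± 0.05 SE, limma adjusted p = 1.47e-08). *hnrnpa0l*, 1121 bases away at chr14:38509186-38510619, had 5749, 5621 and 5901 CPM in bmp-overexpressing libraries, against 6134, 7061 and 6736 CPM in uninjected libraries. It fell by 14.3%, again with no overlap (log2 fold change -0.22 ± 0.04 SE, limma adjusted p = 4.59e-04), and limma-trend did not call it (adjusted p = 0.119).

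*srsf2a*, whose mammalian counterpart SRSF2 (SC35) marks nuclear speckles, had 735, 730 and 709 CPM in bmp-overexpressing libraries, against 783, 914 and 901 CPM in uninjected libraries. All values with bmp were lower (log2 fold change -0.27 ± 0.07 SE, limma adjusted p = 0.0285), but the call was made in only 6 of 12 refits, with adjusted p between 5.45e-05 and 0.144. It was lost without uninjected replicate 2 or 3, without any 1 of the bmp-overexpressing libraries and with limma-trend. *prpf8*, the scaffold around the catalytic centre of the spliceosome, had 283, 301 and 270 CPM in bmp-overexpressing libraries, against 347, 391 and 359 CPM in uninjected libraries. It fell by 22.8% (log2 fold change -0.37 ± 0.09 SE, limma adjusted p = 0.0107) and was called in 9 of 12 refits, with adjusted p between 5.12e-04 and 0.0924. The call was lost without uninjected replicate 2 and without bmp-overexpressing replicate 1 or 3.

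Over all 70 members tested, lower values with bmp outnumbered higher ones. The log2 fold change was negative in 50 of 70 members (71.4%), against 50.4% of all genes tested, and its median was -0.08 over the members and -0.004 over all genes. 19 members had all bmp-overexpressing libraries below all uninjected libraries and 0 had all above, against 9.04% and 9.01% of all genes tested. By family these 19 were 6 hnRNP, 3 SR, 2 SF3, 3 snrp and 5 PRPF genes. The PRPF genes include *prpf4*, whose reads are uncertain because it overlaps a gene row with 62.5% as many counts. The median SE was 0.092 for members and 0.332 for all genes, and the part of this precision in the counts was not tested.

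PRPF genes were split. Besides *prpf8*, the joint-particle protein gene *prpf6* had 190, 193 and 169 CPM in bmp-overexpressing libraries and 213, 233 and 230 CPM in uninjected libraries, and the kinase gene *prpf4bb* likewise did not overlap between the groups, with neither called (limma adjusted p = 0.114 for *prpf6* and 0.259 for *prpf4bb*). 6 of the 12 PRPF genes had positive log2 fold changes, up to 0.25 ± 0.17 SE for *prpf4ba*, which was not called (limma adjusted p = 0.58). Its reads are uncertain, since another gene row with 32.2% as many counts shares its locus. Among SF3 genes, *sf3b1*, the branch point subunit, had 317, 316 and 312 CPM with bmp and 341, 353 and 380 CPM without injection, and was not called (log2 fold change -0.19 ± 0.09 SE, limma adjusted p = 0.347).

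Of the 3 largest log2 fold changes in size, 2 belonged to members with few reads. *hnrnph3* had 13, 37 and 10 counts in bmp-overexpressing libraries and 2, 20 and 10 counts in uninjected libraries (log2 fold change 1.35 ± 1.17 SE, limma adjusted p = 0.688). *srsf7b* had 5 to 25 counts with bmp and 14 to 26 counts without injection, with a log2 fold change of -0.51 ± 1.05 SE. Neither gene was called. *hnrnpd*, known in mammals as AUF1 for its binding of AU-rich elements, had 38.8, 43 and 52.3 CPM with bmp against 57.1, 71.8 and 59.2 CPM without injection, with no overlap but no call (log2 fold change -0.52 ± 0.16 SE, limma adjusted p = 0.0711).

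**Figure D3:**
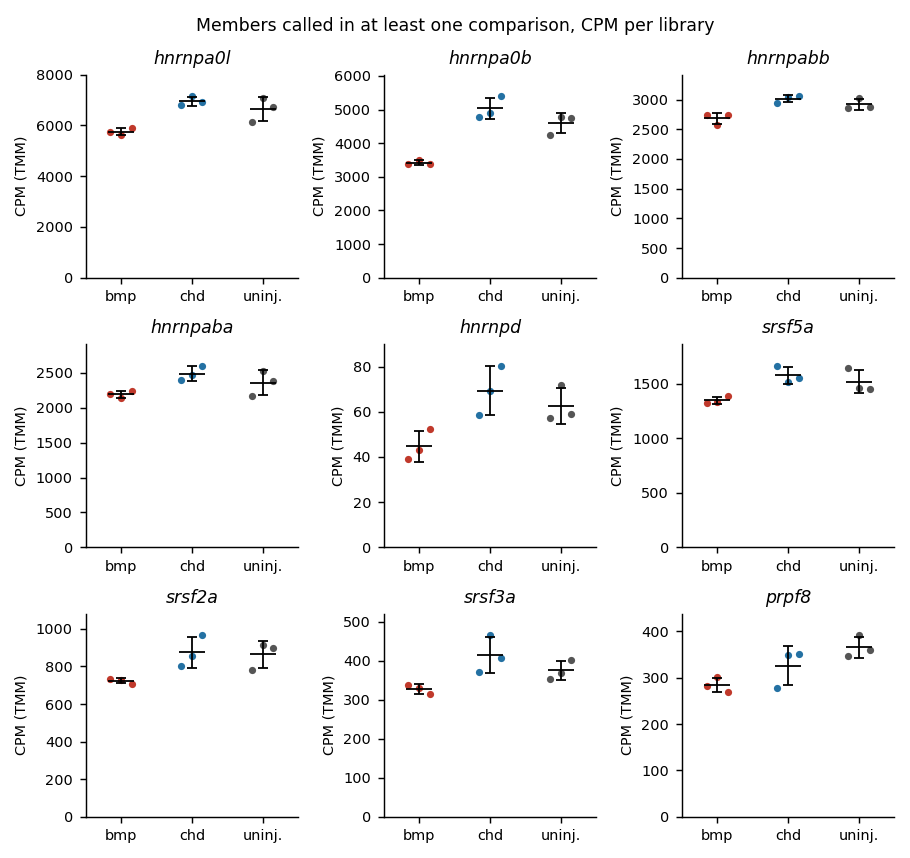
CPM (TMM scaled, vertical axes starting at 0) of the 9 members called in at least 1 comparison, in bmp-overexpressing (red, left), chd-overexpressing (blue, middle) and uninjected (grey, right) libraries, points for libraries, bars for mean and SD. For *hnrnpa0b* the bmp-overexpressing libraries sit between 3375 and 3504 CPM, below all others, and for *prpf8* the chd-overexpressing libraries spread between 278 and 350 CPM.

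In chd-overexpressing against uninjected embryos, 0 of 70 members were called in either direction, against 0.591% higher and 0.301% lower of the 16590 genes tested. At an unadjusted p under 0.05, 4 members were higher and 4 lower, against 5.21% and 4.21% of all genes tested, and limma-trend also called 0. The median log2 fold change was 0.02 over the members and 0.002 over all genes, and 42 of 70 members had a positive value. On plain library totals the median was -0.031 over the members and -0.048 over all genes. 7 members had all chd-overexpressing libraries above all uninjected ones and 2 had all below, against 7.21% and 7.29% of all genes tested.

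*hnrnpa0b* had 4793, 4912 and 5395 CPM in chd-overexpressing libraries, against 4250, 4790 and 4758 CPM in uninjected libraries. The groups were narrowly separate, and the gene was not called (log2 fold change 0.14 ± 0.05 SE, limma adjusted p = 0.262), except without uninjected replicate 2 (adjusted p = 0.00564), with no low-count filter and with a replicate block. *hnrnpa0l* had 6788, 7145 and 6924 CPM with chd and overlapped the uninjected libraries (0.05 ± 0.04 SE on the log2 scale). The other 6 members above all uninjected libraries were *hnrnpa1b*, *hnrnpk*, *hnrnph3* and the snrp genes *snrpb2*, *snrpd2* and *snrpf*, none of them called. For *hnrnph3*, which has few reads, the lowest chd-overexpressing library had 0.8646 CPM and the highest uninjected library 0.8615 CPM.

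Of the 2 members below all uninjected libraries, *prpf6* had 172, 178 and 208 CPM in chd-overexpressing libraries, against 213, 233 and 230 CPM in uninjected libraries (log2 fold change -0.27 ± 0.11 SE, limma adjusted p = 0.362). Its level with bmp was also below all uninjected libraries, in a comparison that shares those libraries. *prpf8* had 278, 350 and 350 CPM with chd and overlapped the uninjected libraries (log2 fold change -0.18 ± 0.10 SE, limma adjusted p = 0.587). Leaving out uninjected replicate 1 gave 2 members called lower with chd, *snrpb* among them (adjusted p = 0.011). The median SE was 0.095 for members and 0.327 for all genes tested.

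In bmp-overexpressing against chd-overexpressing embryos, 8 of 70 members were called lower and 0 higher, against 2.86% and 2.18% of the 16735 genes tested. At an unadjusted p under 0.05, 15 members were lower and 0 higher, against 7.28% and 7.08% of all genes tested, and limma-trend called 6 lower and 0 higher. The 8 were 5 hnRNP genes (*hnrnpa0b*, *hnrnpa0l*, *hnrnpaba*, *hnrnpabb* and *hnrnpd*) and 3 SR genes (*srsf2a*, *srsf3a* and *srsf5a*). 16 members had all bmp-overexpressing libraries below all chd-overexpressing ones and 1, *prpf3*, had all above, against 9.82% and 9.46% of all genes tested. The median log2 fold change was -0.07 over the members and 0.01 over all genes. Members had a median SE of 0.083, against 0.336 for all genes, and the part of this precision in the counts was not tested.

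*hnrnpa0b* had a log2 fold change of -0.57 ± 0.03 SE in this comparison (limma adjusted p = 1.62e-13) and *hnrnpa0l* one of -0.27 ± 0.02 SE (limma adjusted p = 3.44e-10), and both were called in 12 of 12 refits. The means of *hnrnpa0b* were 3424 CPM with bmp, 5033 CPM with chd and 4599 CPM without injection, and those of *hnrnpa0l* 5757 CPM with bmp, 6952 CPM with chd and 6644 CPM without injection, so that the uninjected mean lay between the others in both. In 26 of 70 members the group means had this order, with bmp lowest and chd highest, and in 16 bmp was lowest and uninjected highest. The lowest of the 3 groups was bmp in 42 members, chd in 11 and uninjected in 17. The share of all genes with these orders was not computed, so the counts are not set against it.

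The hnRNP A/B pair, whose mammalian counterpart HNRNPAB binds single-stranded nucleic acids, was lower with bmp than with chd to a like extent in both genes. *hnrnpabb* had 2736, 2577 and 2743 CPM in bmp-overexpressing libraries, against 2947, 3050 and 3056 CPM in chd-overexpressing libraries (log2 fold change -0.17 ± 0.03 SE, limma adjusted p = 0.00101). *hnrnpaba* had 2192, 2145 and 2248 CPM with bmp, against 2395, 2473 and 2602 CPM with chd (log2 fold change -0.19 ± 0.04 SE, limma adjusted p = 0.00112). In neither did the groups overlap, and limma-trend called neither (adjusted p = 0.104 and 0.0864). Against uninjected embryos, log2 fold changes with bmp were -0.13 ± 0.05 SE for *hnrnpabb* and -0.12 ± 0.05 SE for *hnrnpaba*. Neither was called there (limma adjusted p = 0.134 and 0.34), and the *hnrnpaba* libraries overlapped. The uninjected means, 2919 CPM for *hnrnpabb* and 2356 CPM for *hnrnpaba*, lay between those of the injected groups. *hnrnpd* had 38.8, 43 and 52.3 CPM with bmp, against 58.6, 69.2 and 80.3 CPM with chd, a fall of 36.4% that was the largest among called members (log2 fold change -0.65 ± 0.16 SE, limma adjusted p = 0.00882), and was called in 10 of 12 refits, the exceptions being those without bmp-overexpressing replicate 1 and without chd-overexpressing replicate 3 (adjusted p = 0.125).

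Of the SR genes, *srsf5a* had 1328, 1333 and 1388 CPM in bmp-overexpressing libraries, against 1666, 1517 and 1551 CPM in chd-overexpressing libraries (log2 fold change -0.22 ± 0.05 SE, limma adjusted p = 0.0013). *srsf2a* had 802, 858 and 966 CPM with chd, all above the 709 to 735 CPM with bmp (-0.28 ± 0.06 SE on the log2 scale, limma adjusted p = 0.0043). *srsf3a*, an ortholog of the smallest SR protein, had 339, 331 and 315 CPM with bmp, against 373, 466 and 407 CPM with chd (-0.31 ± 0.08 SE on the log2 scale, limma adjusted p = 0.0151). *srsf2a* was not called without chd-overexpressing replicate 3 (adjusted p = 0.0777), and *srsf3a* was not called without chd-overexpressing replicate 2 (adjusted p = 0.0971) or bmp-overexpressing replicate 3.

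**Figure D4:**
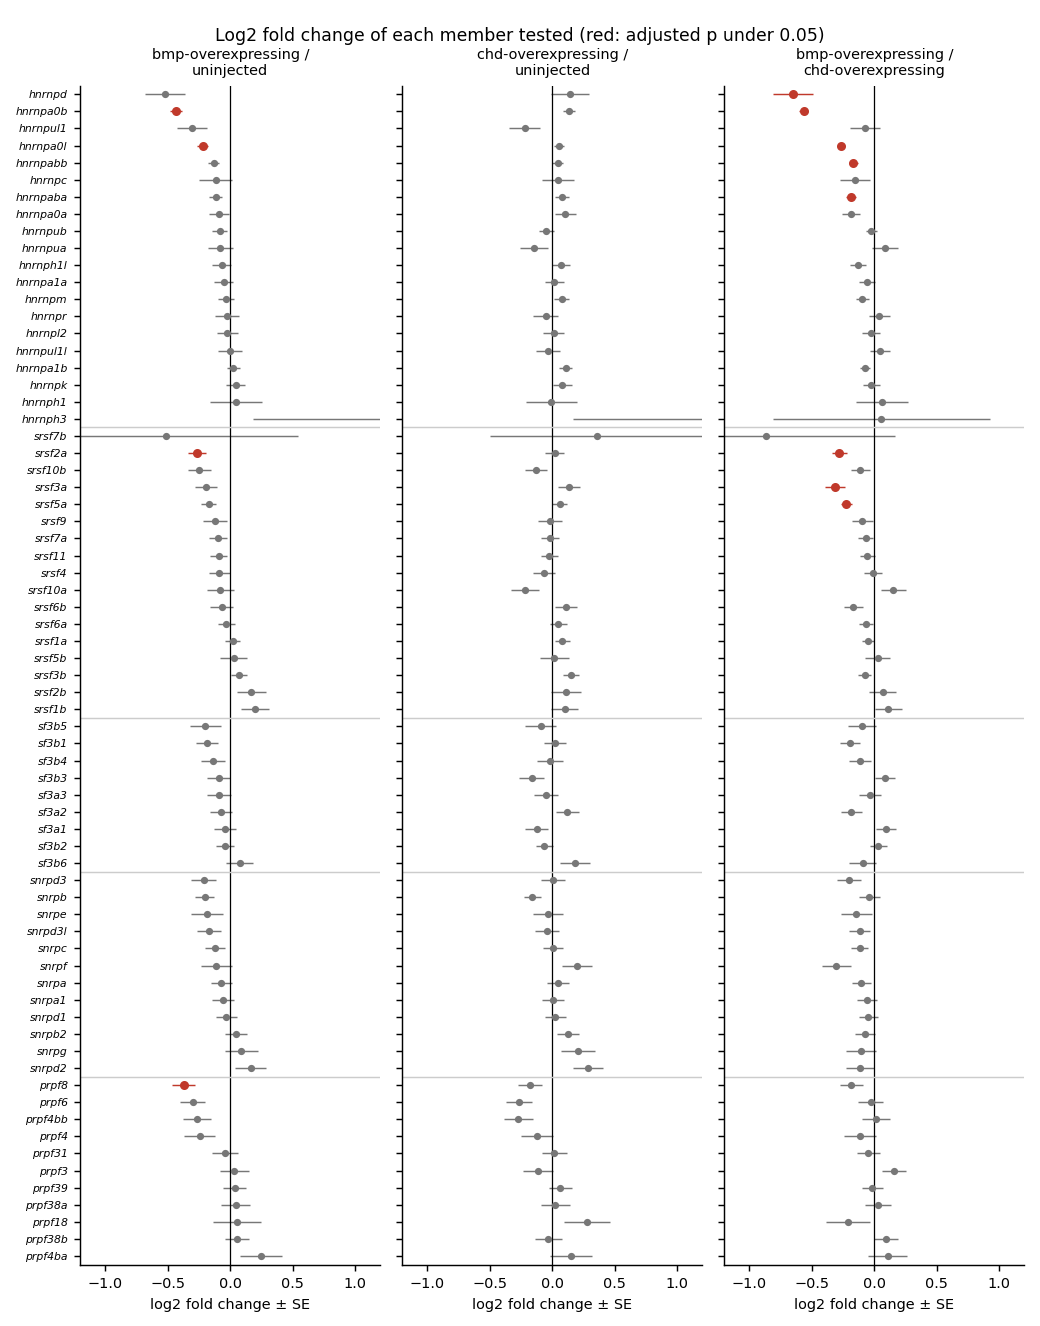
Log2 fold change ± SE (horizontal axes) of the members tested (69 of 70 drawn), by family from top to bottom (hnRNP, SR, SF3A and SF3B, snrp, PRPF), in the 3 comparisons, with members called by limma in red. Most values lie left of 0 in bmp-overexpressing against uninjected embryos, and the *hnrnph3* points at 1.35 and 1.30 lie beyond the axis, which ends at 1.2, as do parts of the error bars of *hnrnph3* and *srsf7b*.

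snrp, SF3 and PRPF genes had no call in this comparison. All 12 snrp genes had negative log2 fold changes, between -0.30 for *snrpf* and -0.04 for *snrpb*, with a family median of -0.11. Of all genes tested, 48.9% were negative. *snrpf*, an Sm core protein gene, had 88.2, 93.9 and 94.4 CPM with bmp, against 110, 115 and 116 CPM with chd (limma adjusted p = 0.158). PRPF genes had a median of -0.002, with 6 negative and 6 positive values. *prpf8* and *prpf6* had log2 fold changes of -0.18 ± 0.09 SE and -0.03 ± 0.10 SE.

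Members with the most CPM of their families, a measure not corrected for transcript length, mostly gave close group means where not called. *srsf1a*, whose human counterpart SRSF1 is also called ASF, averaged 1260 ± 19.8 CPM with bmp, 1302 ± 41.0 CPM with chd and 1233 ± 35.4 CPM without injection (SD, n = 3 each). The U2 subunit gene *sf3b2* averaged 771 ± 80.5 CPM with bmp, 756 ± 49.0 CPM with chd and 792 ± 4.17 CPM without injection. Its neighbour in the U2 particle, *sf3a1*, averaged 402 ± 37.4 CPM with bmp, 382 ± 30.01 CPM with chd and 410 ± 35.4 CPM without injection, and the U1-associated *prpf39* averaged 312 ± 19.9 CPM with bmp, 320 ± 24.7 CPM with chd and 304 ± 4.31 CPM without injection. None of these 4 genes was called in any comparison. *snrpb* was more variable, at 1727, 1969 and 1324 CPM in bmp-overexpressing, 1503, 1676 and 1926 CPM in chd-overexpressing and 1745, 1972 and 2011 CPM in uninjected libraries. *snrpc*, which encodes the U1 protein C, averaged 418 ± 14.4 CPM with bmp, 454 ± 8.84 CPM with chd and 454 ± 13.3 CPM without injection. Over all members, the median coefficient of variation between replicates was 5.45% with bmp, 6.46% with chd and 6.9% without injection, against 22.3% with bmp, 23.4% with chd and 22.5% without injection over all genes tested.

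In these families 12 genes have copies named a and b, and reads of close copies may be divided between them with error. The b copy held between 0.148% (*srsf7b*) and 90.8% (*hnrnpa0b*) of the counts of its pair in uninjected embryos. For most pairs the shares of the groups overlapped, as for *hnrnpabb* at 55.0% with bmp, 54.8% with chd and 55.4% without injection. For 4 of the 12 pairs, bmp-overexpressing and uninjected libraries did not overlap in this share. No rate over other gene pairs was computed, so whether this count is unusual is not known. *hnrnpa0b* held 88.6 ± 0.2% of its pair, which leaves out *hnrnpa0l*, with bmp, 91.0 ± 0.2% with chd and 90.8 ± 0.1% without injection (SD, n = 3 each). *hnrnpa0a* averaged 441 CPM with bmp, 498 CPM with chd and 466 CPM without injection and was not called. Its bmp-overexpressing libraries overlapped the uninjected ones but all lay below the chd-overexpressing ones (log2 fold change -0.19 ± 0.07 SE, limma adjusted p = 0.175).

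*srsf2b* held 15.5%, 17.1% and 16.4% of its pair in bmp-overexpressing libraries, against 13.3%, 13.1% and 11.3% in uninjected libraries, and *srsf3b* held 76.0%, 77.0% and 77.9%, against 74.5%, 73.3% and 73.1%. Against uninjected embryos, *srsf2a* was called lower with bmp and *srsf3a* was not (log2 fold change -0.19, limma adjusted p = 0.321), and *srsf2b* and *srsf3b*, with log2 fold changes of 0.17 ± 0.12 SE and 0.07 ± 0.06 SE, were not called. *prpf4bb* held 72.5 ± 4.7% of its pair with bmp, 73.6 ± 1.2% with chd and 79.3 ± 2.0% without injection, but *prpf4ba* shares its locus with another gene row that has 32.2% as many counts, and the libraries carry no strand, so its reads are uncertain. The same holds for *prpf4*, with an overlapping row of 62.5% as many counts. Chd-overexpressing and uninjected libraries did not overlap in 1 pair, *prpf4ba* and *prpf4bb*, and bmp-overexpressing and chd-overexpressing libraries in 3 pairs, those of *hnrnpa0*, *srsf2* and *srsf10*. No test was made of these shares, and these counts of pairs likewise have no rate over other gene pairs beside them.

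**Figure D5:**
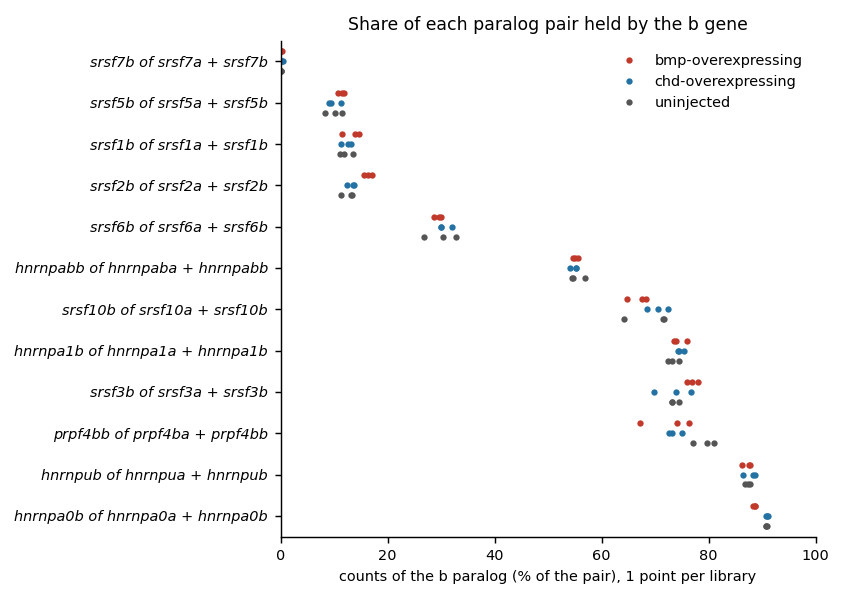
Share of each pair's counts held by the b copy (horizontal axis, percent), 1 point per library, for bmp-overexpressing (red), chd-overexpressing (blue) and uninjected (grey) embryos, ordered by the uninjected mean. The red points of *srsf2b* (15.5% to 17.1%) lie to the right of the grey ones (11.3% to 13.3%), and those of *hnrnpa0b* (88.3% to 88.8%) to the left of the grey ones (90.8% to 90.9%).

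Splicing genes outside these names were read from a list of 109, of which 104 were in the tables. In bmp-overexpressing against uninjected embryos, 3 of 102 tested were called lower and 0 higher, against 1.54% and 1.66% of all genes tested. In chd-overexpressing against uninjected embryos, 1 of 103 was called higher and 0 lower, against 0.591% and 0.301% of all genes. In bmp-overexpressing against chd-overexpressing embryos, 6 of 103 were called lower and 0 higher, against 2.86% and 2.18% of all genes. The 54 other core spliceosome genes, among them Lsm genes and U2 auxiliary factors, had 0 calls in all 3 comparisons, and their median log2 fold changes were -0.07 for bmp-overexpressing against uninjected, 0.001 for chd-overexpressing against uninjected and -0.07 for bmp-overexpressing against chd-overexpressing embryos.

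The called genes were regulators and exon junction genes. *acin1b*, an acinus gene whose mammalian counterpart joins the exon junction complex, had 449, 465 and 444 CPM in bmp-overexpressing libraries, 737, 815 and 838 CPM in chd-overexpressing libraries and 624, 615 and 629 CPM in uninjected libraries. It was lower with bmp (log2 fold change -0.46 ± 0.08 SE, limma adjusted p = 6.85e-05) and higher with chd (0.36 ± 0.07 SE, limma adjusted p = 0.00708) than in uninjected embryos, which both comparisons share, and was the only one of the listed genes and members called in all 3 comparisons. The call with chd was made in 9 of 12 refits and lost without chd-overexpressing replicate 2 or 3 (adjusted p = 0.0702 and 0.0973) and on plain library totals. The more abundant acinus gene *acin1a* averaged 2343 CPM with bmp, 2154 CPM with chd and 2096 CPM without injection. It was not called in any comparison, and its log2 fold changes with bmp were positive (0.20 ± 0.07 SE against uninjected and 0.16 ± 0.06 SE against chd-overexpressing embryos). *qkia*, which encodes a quaking RNA-binding protein, had 107, 84.9 and 130 CPM with bmp, 221, 151 and 177 CPM with chd and 163, 135 and 144 CPM without injection. It was called lower with bmp than with chd (-0.80 ± 0.13 SE on the log2 scale, limma adjusted p = 9.28e-05) and than without injection (-0.48 ± 0.13 SE, limma adjusted p = 0.029), the call against uninjected embryos being lost without bmp-overexpressing replicate 1 or 2 (adjusted p = 0.091 and 0.373).

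*khdrbs1a*, a gene of the Sam68 family, had 4187, 4134 and 4349 CPM in bmp-overexpressing libraries, 4792, 4935 and 4555 CPM in chd-overexpressing libraries and 4750, 4784 and 5059 CPM in uninjected libraries, and was called lower with bmp in both comparisons (log2 fold changes -0.21 ± 0.04 SE and -0.16 ± 0.03 SE, the first against uninjected embryos). limma-trend made neither call (adjusted p = 0.112 against uninjected and 0.0725 against chd-overexpressing embryos). The exon junction core genes *rbm8a* and *magoh* and the SR-related *tra2a* were called lower with bmp than with chd (-0.24 ± 0.06 SE, -0.35 ± 0.10 SE and -0.24 ± 0.07 SE on the log2 scale), and each call was lost in some refits. *rbm8a* was called in 10 of 12 refits (limma adjusted p up to 0.0637), *magoh* in 7 (up to 0.376, without chd-overexpressing replicate 3) and *tra2a* in 5 (up to 0.128). The SR protein kinase genes, 8 in number, had no call in any comparison.

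Some marker genes of tissue layers also differed between the groups, in both directions. The 6 genes of the enveloping layer summed to 7620 to 8180 CPM in bmp-overexpressing, 8650 to 9440 CPM in chd-overexpressing and 7130 to 10400 CPM in uninjected libraries, with 4 of them called lower in bmp-overexpressing than in chd-overexpressing embryos. Against uninjected embryos, 1 of the 6 was called lower with bmp and 1 higher with chd. The organizer genes *gsc* and *noto* averaged 13.7 and 17.5 CPM with bmp, 96.5 and 102 CPM with chd and 50.5 and 50.9 CPM without injection. They were among the 4 of 11 germ layer and dorsal-ventral markers called lower with bmp than without injection. Another 4, *ta*, *tbx16*, *ved* and *foxi1*, were called higher. The part of tissue makeup in the differences of the splicing genes was not tested.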

How the data were processed

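The authors sequenced unstranded poly(A) libraries and aligned reads to GRCz10 with STAR 2.4.1b. The deposited tables hold raw read counts per gene and library, written with commas that were removed, and Cuffdiff 2.1.1 FPKM of the authors, 1 value per group and normalized within each table. Columns of the authors' fold changes and p-values were not used. The submitters' processing notes also name HTSeq. Coordinates are those of the tables, counted from 1.

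TMM factors over all 9 libraries scaled counts to CPM. A gene was tested if 3 or more libraries reached the CPM that equals 10 counts in a library of median size and its total was 15 counts or more. Tests used limma 3.58.1 (voom, R 4.3.3), 2 groups per fit, with calls made below an adjusted p of 0.05 (Benjamini-Hochberg). The quasi-likelihood count test first considered was not used, because a check of units read the cells with commas as text. With the commas removed the values were whole numbers, so the reason lay in that check and not in the values. Named are members called, the 2 with most CPM in uninjected embryos in each family and the 3 largest fold changes per comparison. Also named are called genes of the splicing list and a few others chosen after their values were seen. Members and lists were chosen with earlier results of these data known. Pairs are names that differ in a final a or b, without *snrpa*/*snrpb* and *prpf38a*/*prpf38b*, which are distinct genes. The fit was tested on simulated data. Alternatives were no filter, RLE factors, all groups in 1 fit, a replicate block, limma-trend (prior count 2), an adjusted p under 0.01 and each library left out in turn. Plain library totals were added after seeing the data for the fits. Python 3.11.15, pandas 2.3.3 and matplotlib 3.10.9 were used. Same-numbered libraries of different groups correlated between -0.0055 and 0.0712 in their deviations, so the numbers were not taken as pairs. The values of 1 member are not reported here, though it is included in the counts and sums.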

Additional observations from a re-analysis of the deposited data

How the results depend on the processing

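Each group had 3 libraries, and *hnrnph3*, *srsf7b* and *hnrnpa3* had few reads. The part of either in the precision was not tested. The 4 members lower in bmp-overexpressing than in uninjected embryos became 7 with no low-count filter, 2 with limma-trend, 2 at an adjusted p under 0.01, and 2 to 9 when 1 library was left out (9 without uninjected replicate 1, 2 without bmp-overexpressing replicate 1 or 3). The 0 members higher with chd than without injection became 1, *hnrnpa0b*, with no filter and with the replicate block, and 0 to 1 when 1 library was left out (1 without uninjected replicate 2). The 0 members lower with chd became 0 to 2 when 1 library was left out (2 without uninjected replicate 1). The replicate block gave 6 members lower with bmp than without injection and 8 lower with bmp than with chd. The count lower with bmp than with chd was 6 to 9 when 1 library was left out. Plain library totals put the members' median with chd at -0.031, and the SR sums at 9721 CPM with chd and 9782 CPM without injection. They shifted the median of all genes by at most 0.05 on the log2 scale. The causes were not tested.

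Counts over all genes moved by more than 1.5 times in some settings. Higher with bmp than without injection were 278 genes, and 418 without uninjected replicate 1. Lower were 259, against 466 without that replicate and 166 at an adjusted p under 0.01. Higher with chd were 98, against 153 with no filter, 198 with the replicate block, 231 without uninjected replicate 1 and 58 at an adjusted p under 0.01. Lower with chd were 50, against 109 with the block, 164 without uninjected replicate 1, 27 and 32 without chd-overexpressing replicate 2 or 3 and 26 at an adjusted p under 0.01. Between the injected groups, 365 higher became 223 without chd-overexpressing replicate 3, and 478 lower became 312 at an adjusted p under 0.01.

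Among the genes named by the rule, no called log2 fold change turned its sign in any refit. Of their values not called, these did. In bmp-overexpressing against uninjected embryos, leaving out 1 library gave -1.157 to 0.092 for *srsf7b*, -0.115 to 0.029 for *sf3b2*, -0.105 to 0.044 for *sf3a1* and -0.012 to 0.069 for *prpf39*, and plain totals -0.01 for *srsf1a*. In chd-overexpressing against uninjected embryos, leaving out 1 library gave -0.009 to 0.11 for *hnrnpa0l*, -0.071 to 0.086 for *srsf2a*, -0.004 to 0.26 for *hnrnpd*, -0.27 to 1.18 for *srsf7b*, -0.013 to 0.027 for *snrpc*, -0.067 to 0.001 for *khdrbs1a*, -0.001 to 0.077 for *tra2a* and -0.136 to 0.134 for *magoh*. In the same comparison plain totals, on which the median of all genes was -0.048 (0.002 with TMM), gave -0.031 for *srsf2a*, -0.007 for *hnrnpabb*, -0.044 for *snrpc*, -0.013 for *tra2a* and -0.041 for *magoh*, and the block -0.0 for *snrpc*. In bmp-overexpressing against chd-overexpressing embryos, leaving out 1 library gave -0.49 to 0.54 for *hnrnph3*, -0.059 to 0.101 for *sf3b2*, -0.19 to 0.11 for *snrpb* and -0.081 to 0.015 for *prpf39*, and *hnrnph3* was -0.004 with no filter, -0.55 with the block and -0.27 with limma-trend.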
